A study of Mus musculus with 4 samples.

Results

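The cells described here come from MLL-AF9 leukaemia libraries of mouse bone marrow and held RNA of the mitotic machinery. They were chosen by transcripts: a cell had at least 1 UMI (a counted RNA molecule) in 5 or more of 8 genes, Mki67, Top2a, Cdk1, Ube2c, Birc5, Nusap1, Tpx2 and Cenpf. Granule protein genes Elane, Mpo, Prtn3 and Ctsg had to make up less than 0.5% of its UMIs, and Klf1, Cd3e, Cd79a and Cxcr2, which mark red cell precursors, T cells, B cells and late neutrophils, had to be at 0. The rule took 2286 of 24955 cells that passed quality control in the leukaemia libraries, 968 of 11778 in the Rbm5 knockout (KO) leukaemia and 1318 of 13177 in the wild-type (WT) leukaemia. They are called mitosis-gene cells below. The remaining cells that also met the granule and marker limits, 6217 in KO and 6890 in WT leukaemia, are called other gated cells.

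Rbm5 encodes an RNA-binding protein of the spliceosome, and the study asked what its loss does to leukaemia cells driven by the MLL-AF9 fusion and to normal blood progenitors. The groups were KO MLL-AF9, primary Rbm5 knockout leukaemia cells taken after transplantation, WT MLL-AF9, the same leukaemia with Rbm5 intact and taken at the same endpoint, and bone marrow cells labelled ckit+ (KO222 and WT214), normal progenitors of both genotypes that carry no fusion by their labels. Both leukaemia groups thus carry the fusion, and their cells grew in recipients whose own blood cells may be among those sequenced. Each group was 1 droplet library, with no replicate, and how the knockout was made, the strain, the age and whether animals were pooled are not given in the sources used here. No test or p-value is therefore given, intervals are 95% intervals that cover counting error only, and every KO to WT difference compares 1 library with 1 library. Because all genes of a cell are tied to the rule that chose it, the comparison of mitosis-gene cells with other cells is a description.

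A dividing cell copies its DNA in S phase, together with a burst of histone synthesis, and then builds up cyclin B and CDK1 activity to enter mitosis. Condensin and topoisomerase II compact and untangle the chromosomes, kinetochores and kinesin motors attach them to the spindle, and the chromosomal passenger complex corrects faulty attachments. The anaphase-promoting complex with its activator CDC20 then destroys cyclin B and securin, so that sister chromatids part and the cell divides. Many of these genes are switched on together in G2 by the MuvB complex with B-MYB and FOXM1, through a short promoter element called the CHR, while NF-Y binds the CCAAT box in the same promoters.

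The promoter windows of 4 genes that were high in the mitosis-gene cells are shown because they carry both elements. Each runs from 250 bases before to 50 bases after the RefSeq gene start (GRCm38.p6) and reads 5′ to 3′, and capitals mark the letters TTTGAA or TTCGAA (the CHR) and CCAAT, each searched on both strands with overlaps allowed. In Ube2c a CCAAT on one strand overlaps a CCAAT on the other.
Cdk1 (chr10:69352863-69353162, minus strand): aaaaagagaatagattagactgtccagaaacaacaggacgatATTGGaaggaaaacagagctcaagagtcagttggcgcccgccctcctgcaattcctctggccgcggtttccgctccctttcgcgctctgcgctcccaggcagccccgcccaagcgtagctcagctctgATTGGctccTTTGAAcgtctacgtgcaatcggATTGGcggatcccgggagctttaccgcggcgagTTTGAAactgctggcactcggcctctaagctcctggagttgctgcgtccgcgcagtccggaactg
Top2a (chr11:99024140-99024439, minus strand): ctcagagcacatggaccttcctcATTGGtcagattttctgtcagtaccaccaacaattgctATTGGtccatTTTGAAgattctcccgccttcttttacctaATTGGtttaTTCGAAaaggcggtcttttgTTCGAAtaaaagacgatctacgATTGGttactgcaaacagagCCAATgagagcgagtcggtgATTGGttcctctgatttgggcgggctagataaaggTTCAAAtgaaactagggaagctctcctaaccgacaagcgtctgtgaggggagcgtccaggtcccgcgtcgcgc
Ube2c (chr2:164769679-164769978, plus strand): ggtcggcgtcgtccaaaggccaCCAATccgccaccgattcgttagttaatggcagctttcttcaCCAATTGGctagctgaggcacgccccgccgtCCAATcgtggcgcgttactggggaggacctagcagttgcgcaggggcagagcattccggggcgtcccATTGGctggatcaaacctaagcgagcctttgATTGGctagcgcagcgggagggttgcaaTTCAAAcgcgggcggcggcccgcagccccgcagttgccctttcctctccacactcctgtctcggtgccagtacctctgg
Ccnb2 (chr9:70421505-70421804, minus strand): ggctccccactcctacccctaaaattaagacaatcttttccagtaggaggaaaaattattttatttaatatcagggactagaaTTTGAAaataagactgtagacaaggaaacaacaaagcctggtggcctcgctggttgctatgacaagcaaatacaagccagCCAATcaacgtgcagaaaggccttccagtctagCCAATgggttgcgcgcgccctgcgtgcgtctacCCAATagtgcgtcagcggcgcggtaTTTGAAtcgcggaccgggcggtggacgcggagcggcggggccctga
The CHR letters stood in 73 of the 122 promoters found for the 148 genes of 9 mitosis lists and the 8 rule genes (59.8%), against 5254 of all 27025 promoters in the table (19.4%). CCAAT stood in 84 of the 122 (68.9%), against 37.9% of all promoters. A CHR together with 2 or more CCAAT boxes was found in 37 of the 122 (30.3%), against 2.43% of all promoters, and Cdk1, Top2a, Ube2c and Ccnb2 are among them. Of 42 promoters found for the S phase list, 8 held the CHR (19.0%) and 26 held CCAAT (61.9%). Of 24 promoters found for the immediate early list described further on, 3 held the CHR. The cyclic AMP response element TGACGTCA stood in 2 of them (8.33%, against 1.88% of all promoters) and a CArG box in 2 (8.33%, against 1.57%). Of the 122 mitosis promoters, 8 held TGACGTCA (6.56%) and 3 a CArG box (2.46%). These letters are descriptions of the windows and say nothing about binding in these cells.

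The label was checked against markers that the rule did not use. Plk1, the kinase that drives mitotic entry and exit, had 79.0 and 1.80 CPM (UMIs summed over the cells and scaled to a total of 1000000) in mitosis-gene and other gated cells of the KO leukaemia, and 77.8 and 2.96 CPM in those of the WT leukaemia. Cdc20 had 154 and 7.32 CPM in the same KO populations and 119 and 7.58 CPM in the WT ones. Cyclin B1 (Ccnb1) had 108 and 3.16 CPM in KO and 95.7 and 3.67 CPM in WT. These genes mark G2 and mitosis, yet 32 KO and 82 WT mitosis-gene cells had no UMI of Plk1, Ccnb1, Cdc20, Aurka, Cenpa, Ccnb2, Cenpe or Hmmr, and many cells were rich in S phase RNA. The rule therefore takes in cells from S phase to mitosis, and mitosis-gene cells is used here in place of mitotic cells.

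The leukaemia programme was present in them. Meis1, a HOX cofactor that MLL fusions keep active, had 353 CPM in KO and 479 CPM in WT mitosis-gene cells, with a UMI in 790 of 968 and 1179 of 1318 cells. In c-Kit+ marrow cells taken by the same rule it had 68.4 CPM in KO and 49.8 CPM in WT. Hoxa9, the homeobox gene at the centre of this programme, had 120 CPM in KO and 179 CPM in WT mitosis-gene cells, against 6.63 and 4.78 CPM in the KO and WT c-Kit+ cells. To gauge leukaemia RNA counted in other cells, T cells of the same leukaemia libraries were read. They had a UMI of Cd3e and one of Cd3d, Cd3g or Trac and should lack this programme. Doublets were not removed from them, so free RNA and doublets were not told apart. In these 96 KO and 93 WT cells, with medians of 6508 and 4762 UMIs, Meis1 reached 72.5 CPM in KO and 143 CPM in WT and Hoxa9 27.9 and 47.5 CPM. T and NK cell markers summed to 10.6 CPM in KO and 5.06 CPM in WT mitosis-gene cells, B cell markers to 7.72 and 20.4 CPM, basophil and mast cell markers to 6.10 and 6.97 CPM, the rule itself holding Cd3e and Cd79a at 0. Macrophage markers summed to 76.0 CPM in KO and 252 CPM in WT, plasmacytoid dendritic cell markers to 157 and 240 CPM, erythroid markers to 5099 and 480 CPM and megakaryocyte markers to 303 and 27.4 CPM. Their part in the results was not tested, except where cells with erythroid or megakaryocyte genes were left out.

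The mitosis-gene cells had more UMIs than other gated cells, and a rule that needs UMIs of 5 genes favours deep cells. Median UMIs were 6611 in KO and 4689 in WT gated cells with 0 rule genes, and 13983.5 and 12150 in those with all 8. The median of mitosis-gene cells was 12839.5 UMIs in KO and 10352 UMIs in WT, against 6868 and 5079 UMIs in the KO and WT other gated cells. They expressed a median of 3499.5 genes in KO and 3457.5 genes in WT. Mitochondrially encoded genes took a median of 0.717% of UMIs in KO and 0.859% in WT mitosis-gene cells. Scrublet called 57 KO (5.89%) and 75 WT (5.69%) of them doublets, against 3.16% and 3.10% of all KO and WT leukaemia cells, and these were kept because the rule does not remove them. The KO and WT leukaemia libraries shared 54 barcodes, none of them between their mitosis-gene cells.

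**Figure D1:**
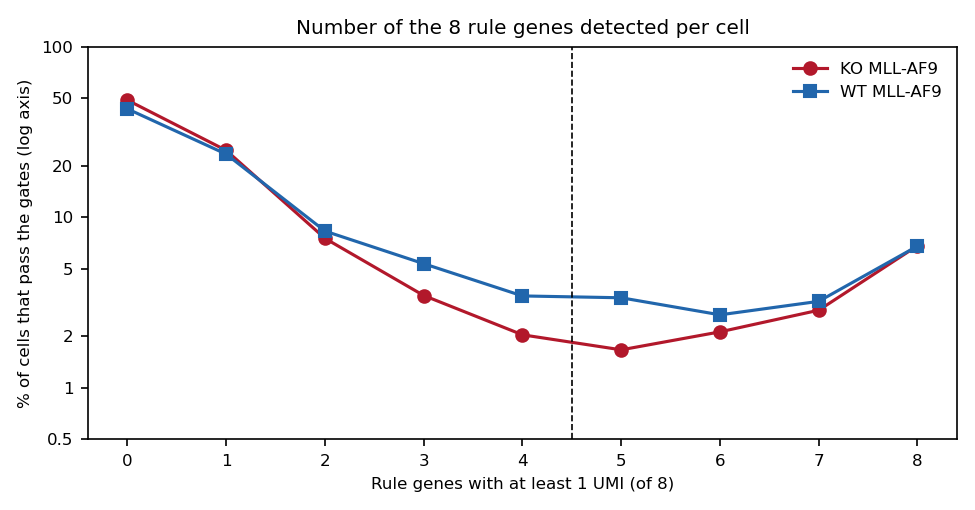
Percentage of gated cells (y axis, log scale) by the number of the 8 rule genes with at least 1 UMI (x axis), for the KO and WT leukaemia libraries. The dashed line marks the rule. Cells with all 8 genes make up 6.82% of KO and 6.79% of WT gated cells, while shares at 2 to 7 genes are lower in KO. The number of genes seen depends on depth, and KO cells were deeper.

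Fewer of the KO leukaemia cells met the rule. Mitosis-gene cells were 8.22% (7.73 to 8.73) of KO and 10.002% (9.50 to 10.5) of WT cells (exact Clopper-Pearson intervals), a ratio of 0.822 (0.755 to 0.893). Cells with all 8 genes were 6.82% of KO and 6.79% of WT gated cells. Those with 7 were 2.85% of KO and 3.22% of WT gated cells, and those with 6 were 2.13% and 2.68%. Cells with exactly 5 were 1.67% of KO and 3.37% of WT gated cells. The number of rule genes seen rose with depth, so these shares do not place the gap in 1 kind of cell. With 6 or more genes the shares were 7.20% in KO and 7.90% in WT, a ratio of 0.911 (0.831 to 0.999). The rule depends on depth, and KO cells were deeper. With each cell thinned to 2000 UMIs, which left out 514 KO and 1190 WT cells, the shares were 3.54% in KO and 5.13% in WT, a ratio of 0.690 (0.607 to 0.784). Among c-Kit+ cells the same rule took 15.6% in KO and 15.8% in WT.

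Just inside the threshold stood 120 KO and 277 WT gated cells with 5 rule genes, and just outside 147 KO and 284 WT cells with 4. The 8 genes summed to 1468 CPM in the KO and 1887 CPM in the WT cells with 5, and to 1105 CPM in the KO and 1325 CPM in the WT cells with 4. A further 711 KO and 1120 WT cells had 5 or more rule genes but failed the exclusion limits. Of these, 530 KO and 988 WT cells held 0.5% or more of granule protein UMIs, 128 KO and 54 WT cells had Klf1, and 89 KO and 110 WT cells had Cxcr2.

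Myeloid states of the leukaemia were read among gated cells, since other cells cannot meet the rule. Class II cells had 0.2% or more of their UMIs in H2-Aa, H2-Ab1, H2-Eb1 and Cd74, which serve antigen presentation. Of them, 2.40% (0.498 to 6.85) in KO and 3.50% (1.88 to 5.92) in WT were mitosis-gene cells, against 13.7% and 16.7% of KO and WT gated cells outside that state. With the rule, the limits and the state all read in cells thinned to 2000 UMIs, an alternative chosen after seeing the data, the shares were 3.48% (0.956 to 8.67) in KO and 1.12% (0.305 to 2.84) in WT, against 5.08% (4.60 to 5.59) and 8.16% (7.55 to 8.80) outside. The shares inside the state rest on 4 of 115 thinned class II cells in KO and 4 of 358 in WT. The intervals cover counting error only and are not a test. Secondary granule cells had 1% or more of their UMIs in Ltf, Camp, Ngp and Lcn2, proteins of maturing neutrophils. At full depth 15.1% of them in KO and 20.7% in WT were mitosis-gene cells, against 9.50% and 12.9% outside. In thinned cells the shares lay closer together, at 5.14% (4.58 to 5.73) in KO and 8.35% (7.48 to 9.29) in WT. Outside the state they were 4.83% (3.95 to 5.84) and 7.38% (6.61 to 8.22). Cells with 1% or more in stefin genes, inhibitors of cathepsins, held 17.8% in KO and 25.8% in WT at full depth, against 13.1% and 14.8% outside. In thinned cells they held 5.55% (3.91 to 7.60) in KO and 11.2% (9.34 to 13.2) in WT, against 5.01% (4.52 to 5.54) and 7.31% (6.70 to 7.96). Among cells with a UMI of the receptors Kit, Cd34 or Flt3, found on stem and progenitor cells, the shares were 26.5% in KO and 22.1% in WT at full depth, against 10.8% and 13.1% of the remaining gated cells. Thinned, they were 7.22% (4.85 to 10.3) in KO and 7.26% (5.83 to 8.92) in WT, against 4.94% (4.46 to 5.46) and 7.93% (7.30 to 8.61).

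**Figure D2:**
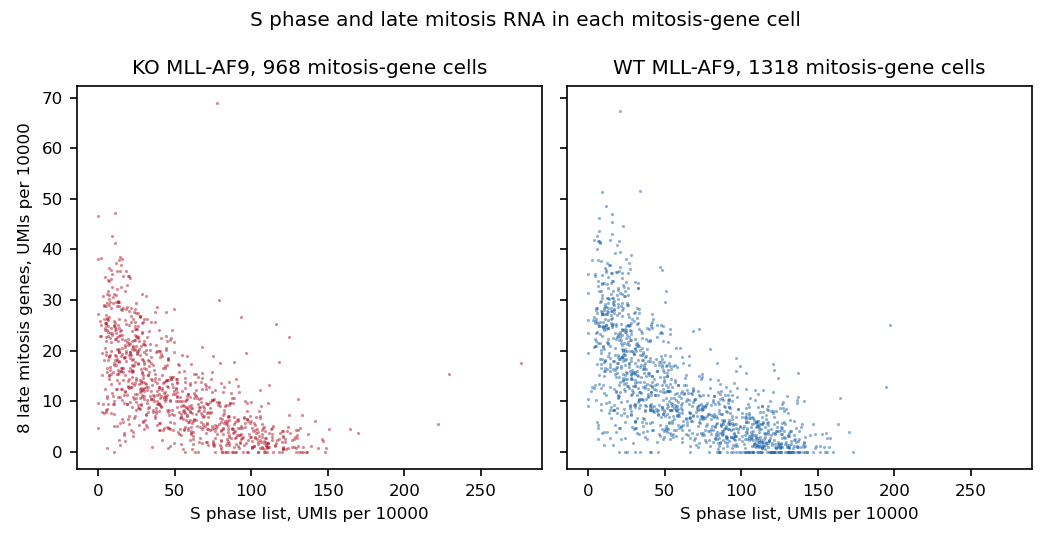
Each point is a mitosis-gene cell of the KO (left) or WT (right) leukaemia. The x axis gives UMIs of the 57 genes of the S phase list and the y axis UMIs of 8 late mitosis genes, both per 10000 UMIs of the cell. The 2 measures run in opposite directions, with a Pearson r of −0.64 in KO and −0.69 in WT, and some cells are rich in both.

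Within the population, S phase RNA and late mitosis RNA ran in opposite directions, with some cells rich in both. The S phase list took a median of 44.7 UMIs per 10000 in KO and 53.2 in WT mitosis-gene cells, against 6.38 and 10.4 in the KO and WT other gated cells. The 8 late mitosis genes outside the rule (Plk1, Ccnb1, Cdc20, Aurka, Cenpa, Ccnb2, Cenpe and Hmmr) took a median of 10.6 UMIs per 10000 in KO and 9.34 in WT, against 0 in other gated cells of either library. Across cells the 2 measures had a Pearson r of −0.64 in KO (968 cells) and −0.69 in WT (1318 cells), a description of cells that share a library and a depth. Replication-dependent histones took a median of 57.9 UMIs per 10000 in KO and 66.7 in WT, against 4.14 and 3.93 in the KO and WT other gated cells.

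The cells of each library were ordered by late mitosis RNA and cut into 4 bins of equal size, from bin 1 (lowest) to bin 4 (highest). Across them the 8 late mitosis genes, which set the order, summed to 239, 784, 1426 and 2508 CPM in KO and to 183, 667, 1344 and 2703 CPM in WT. The S phase list ran the other way, with 9042, 5700, 3629 and 2012 CPM in KO and 10358, 7614, 4814 and 2250 CPM in WT. Pcna, the sliding clamp of DNA polymerase, had 576, 298, 161 and 95.8 CPM in KO and 564, 342, 139 and 52.8 CPM in WT. The histone list was highest in bin 2 of each library, at 5908, 6544, 5715 and 4801 CPM in KO and 5028, 9980, 8339 and 5279 CPM in WT. By these lists bin 1 held S phase RNA and bin 4 RNA of G2 and mitosis, in both libraries. In bin 4 over bin 1, 4.98% of 9370 genes were 2-fold or more higher and 6.09% lower in KO, and 4.43% of 9901 genes higher and 7.99% lower in WT. MYC-linked ribosome biogenesis genes summed to 3243, 2772, 2089 and 2003 CPM in KO and to 3639, 2832, 2292 and 2059 CPM in WT. In KO bin 2, 15.3% of these UMIs came from 1 cell, and the deepest KO mitosis-gene cell had 126552 UMIs. The MLL-fusion and self-renewal list was nearly level, at 6318, 6452, 6823 and 7126 CPM in KO and 7500, 7649, 8467 and 7943 CPM in WT.

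Outside the cell cycle and histone lists, the 12 highest and 12 lowest ratios of bin 4 over bin 1 that both libraries shared, averaging at least 50 CPM, were picked after their values were seen. Cdkn3, a phosphatase that acts on CDK1, had 198 CPM in bin 4 and 21.05 CPM in bin 1 of KO cells, and 192 and 17.7 CPM in those of WT cells. Knstrn, a spindle and kinetochore adaptor, had 202 and 47.6 CPM in KO and 232 and 47.0 CPM in WT. The 12 lowest included the DNA repair and replication genes Rif1, Brca1 and Rpa1, and Brca1 had 37.6 CPM in bin 4 and 151 CPM in bin 1 of KO cells, and 24.2 and 131 CPM in those of WT cells. Paics, an enzyme of purine synthesis, had 28.9 and 145 CPM in KO and 35.6 and 181 CPM in WT.

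**Figure D3:**
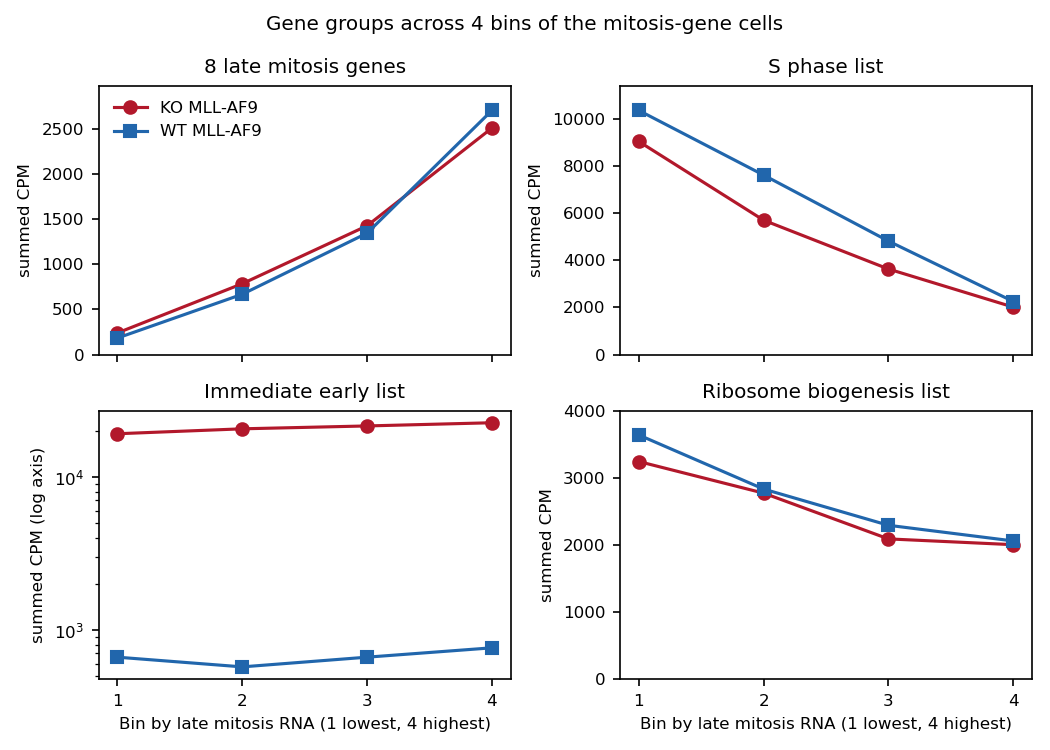
Summed CPM (y axes; log scale for the immediate early list) of 4 gene groups across the 4 bins of the mitosis-gene cells ordered by late mitosis RNA (x axis), KO and WT leukaemia. Late mitosis RNA climbs and S phase RNA declines in both, while immediate early RNA lies between 19082 and 22517 CPM in KO and between 572 and 761 CPM in WT.

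Against all other cells that passed quality control, whatever their granule RNA, 6.38% of 9416 genes were 2-fold or more higher and 4.17% lower in KO mitosis-gene cells, and 3.61% of 10024 genes were higher and 3.04% lower in WT ones. The clearer contrast is with other gated cells, in which the mitotic machinery was low. Of 140 genes in the 9 mitosis lists, 139 reached a mean of 5 CPM in the mitosis-gene cells, and 122 of them were 2-fold or more higher there than in other gated cells in both libraries, where 5.69% of 9011 genes were. The list median of the log2 ratio (with 1 CPM added) was 3.18 in KO and 2.80 in WT, against medians over all genes of 0.11 and 0.03. Since the rule picks cells by 8 mitosis genes, this describes what comes with them. Leading by the smaller ratio of the 2 libraries, averaging at least 50 CPM, were the histone genes H3c3, H1f5, H2ac8 and H2ac24, the rule genes Nusap1, Ube2c, Birc5 and Cenpf, and Hmmr, Ccnb1, Ccna2 and Cdca3. H3c3, a gene for histone H3, had 304 and 6.48 CPM in KO mitosis-gene and other gated cells and 423 and 10.7 CPM in WT ones.

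Beyond the cell cycle lists, 12 genes were named by the same measure. Pbk, a mitotic kinase, had 80.5 CPM in KO mitosis-gene cells and 2.91 CPM in KO other gated cells, and 121 and 7.80 CPM in the WT ones. Pclaf, which binds PCNA, had 598 and 36.5 CPM in KO and 682 and 82.8 CPM in WT. Stil, needed to duplicate centrioles, had 144 and 10.3 CPM in KO and 79.5 and 11.7 CPM in WT. Shcbp1, Cdkn3, Neil3, Knstrn, Depdc1b, Cenpp, Dbf4, Lockd and Ccdc34 completed the 12 highest.

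At the other end stood Mmp8 and 11 further genes. Mmp8, the neutrophil collagenase, had 20.5 CPM in KO mitosis-gene cells and 169 CPM in KO other gated cells, and 18.3 and 135 CPM in the WT ones. Cd74, the chaperone of class II molecules, had 26.5 and 189 CPM in KO and 66.5 and 468 CPM in WT. S100a6 had 552 and 2632 CPM in KO and 603 and 2757 CPM in WT. Retnlg, H2-Aa, H2-Ab1, H2-Eb1, Plbd1, Ceacam10, Wfdc17, Fpr2 and Mmp9 completed the 12 lowest, and 3.03% of 9011 genes were 2-fold or more lower in both libraries. The median log2 ratio of the late neutrophil list was −1.50 in KO and −1.52 in WT, and that of interferon-stimulated genes −1.06 in both. The secondary and tertiary granule list had medians of −0.41 and −0.53, with 6 of 17 genes 2-fold lower in both libraries.

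KO and WT mitosis-gene cells were then compared. Of 9660 genes that averaged at least 5 CPM, 466 (4.82%) were 2-fold or more higher and 971 (10.1%) 2-fold or more lower in KO, with a median log2 ratio of −0.30 over all genes. Under median-ratio scaling the counts were 638 higher and 439 lower and the median −0.03, so list medians below are to be read against −0.30. Counts of 2-fold genes in the lists are to be read against 4.82% higher and 10.1% lower. In c-Kit+ cells taken by the same rule, 0.352% of 8817 genes were 2-fold higher and 0.0567% lower in KO.

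Rbm5 itself had 105 CPM in KO and 151 CPM in WT mitosis-gene cells, a ratio of 0.695 (0.648 to 0.744). It had 86.3 CPM in KO and 69.7 CPM in WT c-Kit+ cells taken by the same rule. The sources used here do not say which part of the gene was deleted, and UMIs from outside that part do not check the label. Its paralog Rbm6 had 112 CPM in KO and 188 CPM in WT mitosis-gene cells, and Rbm10 had 26.4 and 44.8 CPM.

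The mitosis lists lay near the median of all genes between KO and WT mitosis-gene cells. The median log2 ratio of the 139 mitosis genes was −0.26 (0.01 under median-ratio scaling), against −0.30 for all genes, with 2 genes 2-fold or more higher and 6 lower. In other gated cells the same genes had a median of −0.82, against −0.44 for the genes tested in the mitosis-gene cells, with 2 genes 2-fold or more higher and 41 lower where 5.55% of 9778 genes were higher and 18.4% lower, and in c-Kit+ cells chosen by the rule −0.02. Among the rule genes, Ube2c, the ubiquitin-conjugating enzyme of the anaphase-promoting complex, had 680 CPM in KO and 579 CPM in WT (ratio 1.17, 1.14 to 1.21). Cdk1 had 330 CPM in KO and 308 CPM in WT. Birc5, the survivin subunit of the passenger complex, had 435 CPM in KO and 465 CPM in WT. Top2a, topoisomerase II alpha, was lower, at 638 CPM in KO and 1015 CPM in WT (0.629, 0.612 to 0.646), as was Mki67, which coats mitotic chromosomes, at 547 CPM in KO and 730 CPM in WT (0.750, 0.727 to 0.773). The spindle genes Nusap1 and Tpx2 and the kinetochore gene Cenpf had ratios of 0.786, 0.742 and 0.781. Since each chosen cell must show 5 of these 8 genes, their levels are tied to the rule, and those of other cell cycle genes may follow. The rule depends on depth, which was lower in WT, and left cells with fewer of these genes among other gated cells. Of gated cells, 3.48% in KO and 5.35% in WT had 3 rule genes, and 2.05% and 3.46% had 4. The contrast with other gated cells is thus tied to the rule, and the part of depth in it was not tested.

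By role, entry regulators had a median of −0.20 (0.07 under median-ratio scaling), with none of 20 genes 2-fold apart once 1 CPM was added. Cyclin A2 (Ccna2) had 156 CPM in KO and 155 CPM in WT, Ccnb2 had 233 and 194 CPM, and Wee1, which restrains CDK1, had 24.4 and 49.7 CPM (ratio 0.491, 0.428 to 0.562), just short of that limit. Without cells carrying red cell or megakaryocyte genes, Wee1 had a log2 ratio of −1.05. The 14 genes of condensation and topology had a median of −0.25 (0.02 under median-ratio scaling), and the condensin core gene Smc4 had 518 CPM in KO and 539 CPM in WT. Kinetochore genes had a median of −0.25 (0.01), with 1 of 25, Nsl1, 2-fold lower at 10.7 CPM in KO and 27.0 CPM in WT. Cenpe, the kinesin that moves chromosomes to the spindle equator, had 143 CPM in KO and 200 CPM in WT, and the centromeric histone Cenpa 279 and 256 CPM. The 14 genes of cohesin, the ring that holds sister chromatids together, had a median of −0.23 (0.04 under median-ratio scaling), with none 2-fold apart. Rad21, the subunit cleaved at anaphase, had 231 CPM in KO and 279 CPM in WT, and Sgo1, which guards centromeric cohesin, 69.6 and 86.5 CPM.

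The spindle checkpoint, which holds back anaphase until every kinetochore is attached, had the lowest median of these lists, −0.55 over 9 genes (−0.28 under median-ratio scaling). Its kinase Ttk had 31.8 CPM in KO and 77.9 CPM in WT (ratio 0.409, 0.364 to 0.458), with a UMI in 302 of 968 and 635 of 1318 cells. Bub1b, another checkpoint kinase-like protein, had 82.1 CPM in KO and 145 CPM in WT (0.567, 0.526 to 0.611), whereas Mad2l1 had 78.4 and 83.1 CPM. Ttk had a log2 ratio of −1.93 in other gated cells and −0.07 in c-Kit+ cells chosen by the rule. Among motors and microtubule genes, Kif11, which pushes spindle poles apart, had 257 CPM in KO and 371 CPM in WT, and the tubulin gene Tuba1c was 2-fold higher at 231 CPM in KO and 81.6 CPM in WT. In the passenger complex, Aurkb had 160 and 171 CPM, Incenp 201 and 194 CPM and Cdca8 319 and 321 CPM in KO and WT, with a median of −0.01 over 5 genes (0.26 under median-ratio scaling). Cdca2, which recruits a phosphatase to chromatin at anaphase and stands in that list, had 70.6 CPM in KO and 142 CPM in WT. The anaphase-promoting complex and mitotic exit list had a median of −0.37 over 10 genes (−0.10 under median-ratio scaling), and its subunit gene Cdc23 had 14.9 CPM in KO and 31.9 CPM in WT. Cytokinesis genes had a median of −0.26 (0.01 under median-ratio scaling). Anln, the scaffold of the contractile ring, had 73.1 CPM in KO and 190 CPM in WT (0.385, 0.357 to 0.415), Ect2, which switches the ring on, 162 and 161 CPM, and Fam83d 23.5 and 9.83 CPM.

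**Figure D4:**
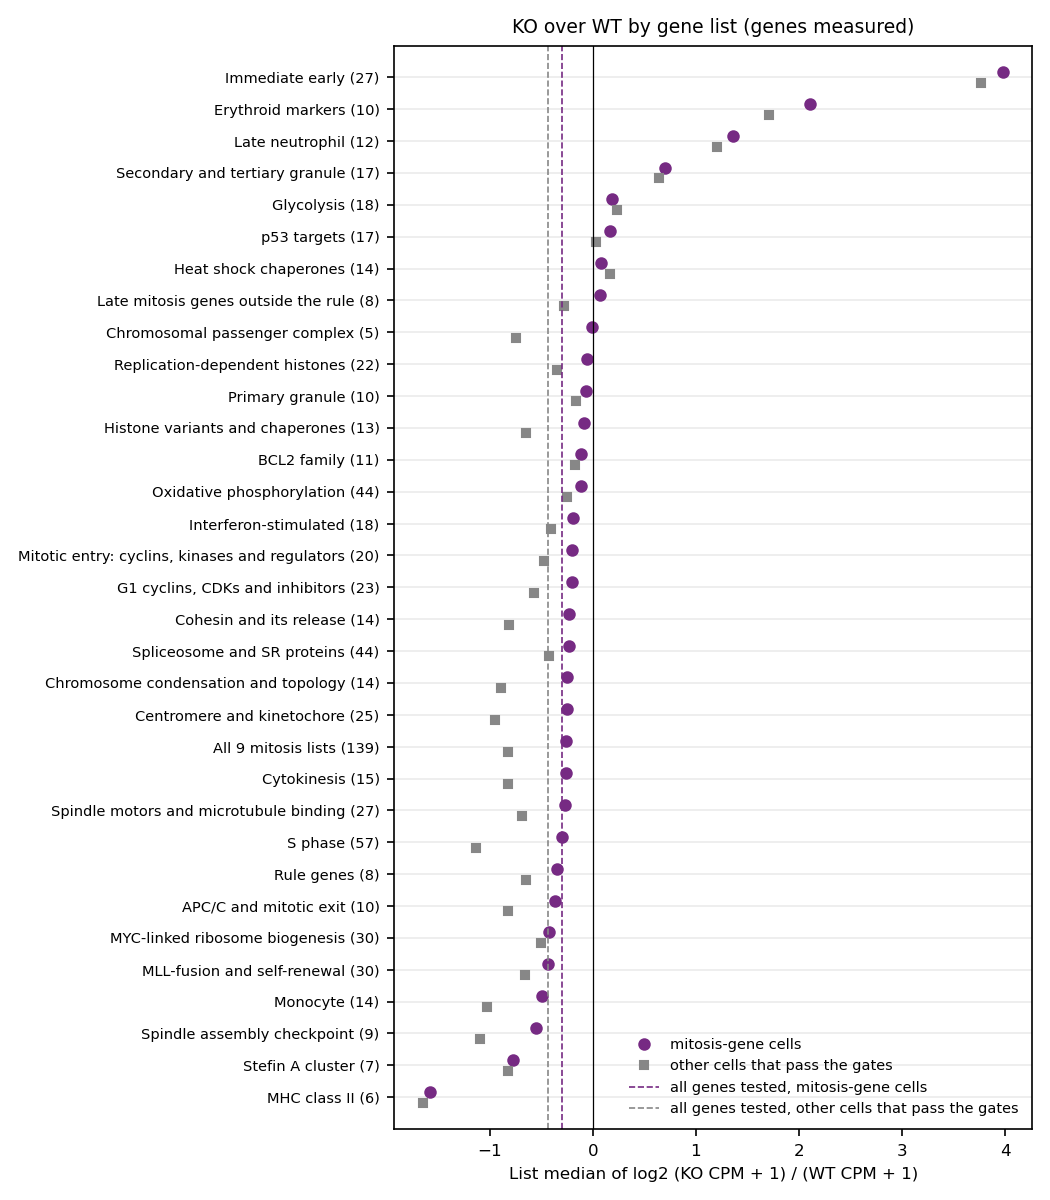
Median log2 ratio of KO over WT CPM (1 CPM added; x axis) for each gene list with at least 5 measured genes, in mitosis-gene cells (circles) and other gated cells (squares). Dashed lines mark the medians of all tested genes. The combined list of 139 mitosis genes and the S phase list sit near the line in mitosis-gene cells (−0.26 and −0.30) and left of it in other gated cells (−0.82 and −1.13). The rule sorted cells between these populations by mitosis genes, so this contrast is tied to it.

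S phase genes followed the same pattern, with the same limit. Their median in mitosis-gene cells was −0.30 over 57 genes (−0.03 under median-ratio scaling). None was 2-fold higher and 3 were lower, Ung, Gins3 and Wdr76, where 4.82% of 9660 genes were higher and 10.1% lower. In other gated cells the median of the same genes was −1.13. Rrm2, the ribonucleotide reductase subunit that makes DNA precursors, had 312 CPM in KO and 283 CPM in WT mitosis-gene cells but 19.4 and 39.3 CPM in KO and WT other gated cells. Wdr76 had 39.1 CPM in KO and 87.8 CPM in WT mitosis-gene cells.

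Histone genes split. The 22 measured replication-dependent genes had a median of −0.05 (0.21 under median-ratio scaling), with 2 of them 2-fold higher. H2bc4, an H2B gene, had 394 CPM in KO and 82.99 CPM in WT mitosis-gene cells (ratio 4.74, 4.45 to 5.06), with a UMI in 702 of 968 and 566 of 1318 cells. H1f2, a linker histone gene, had 494 CPM in KO and 146 CPM in WT (3.38, 3.21 to 3.56). The linker histone genes H1f4 and H1f5 were lower, at 244 and 451 CPM for H1f4 and 522 and 839 CPM for H1f5 in KO and WT. H4c8 had 49.7 CPM in KO and 177 CPM in WT (0.281, 0.257 to 0.307). Replication-dependent histone transcripts normally end without a poly(A) tail while the libraries were primed with poly-dT, and the part of these transcripts that the counts cover was not tested. H3f3b, which encodes the variant histone H3.3 outside S phase, had 7173 CPM in KO and 1690 CPM in WT mitosis-gene cells, and 4086 and 1036 CPM in KO and WT other gated cells.

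Genes that brake the cycle were not read as a list of their own. The 23 genes of G1 cyclins, their kinases and inhibitors had a median of −0.20 (0.06 under median-ratio scaling). Cdkn1a, the p21 inhibitor of cyclin-dependent kinases, had 164 CPM in KO and 28.1 CPM in WT mitosis-gene cells (5.85, 5.24 to 6.54), with a UMI in 580 of 968 and 250 of 1318 cells. It declined toward mitosis in both libraries, at 189, 195, 148 and 124 CPM over the bins in KO and 34.6, 41.3, 24.9 and 11.1 CPM in WT. Cdkn1b, the p27 inhibitor, had 59.5 CPM in KO and 68.8 CPM in WT, and Cdkn2a 12.4 and 28.0 CPM. The p53 target list, to which Cdkn1a belongs, had a median of 0.17 over 17 genes (0.43 under median-ratio scaling). Of these, 7 were 2-fold higher and 2 lower, where 4.82% of 9660 genes were higher and 10.1% lower. Pmaip1, which encodes the death protein NOXA, had 142 CPM in KO and 23.5 CPM in WT, Bbc3 (PUMA) 51.3 and 9.61 CPM, and Mdm2, which degrades p53, 157 and 66.0 CPM. In the BCL2 family, Mcl1 had 962 CPM in KO and 136 CPM in WT and Bcl2, another survival gene, 13.4 and 66.9 CPM.

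**Figure D5:**
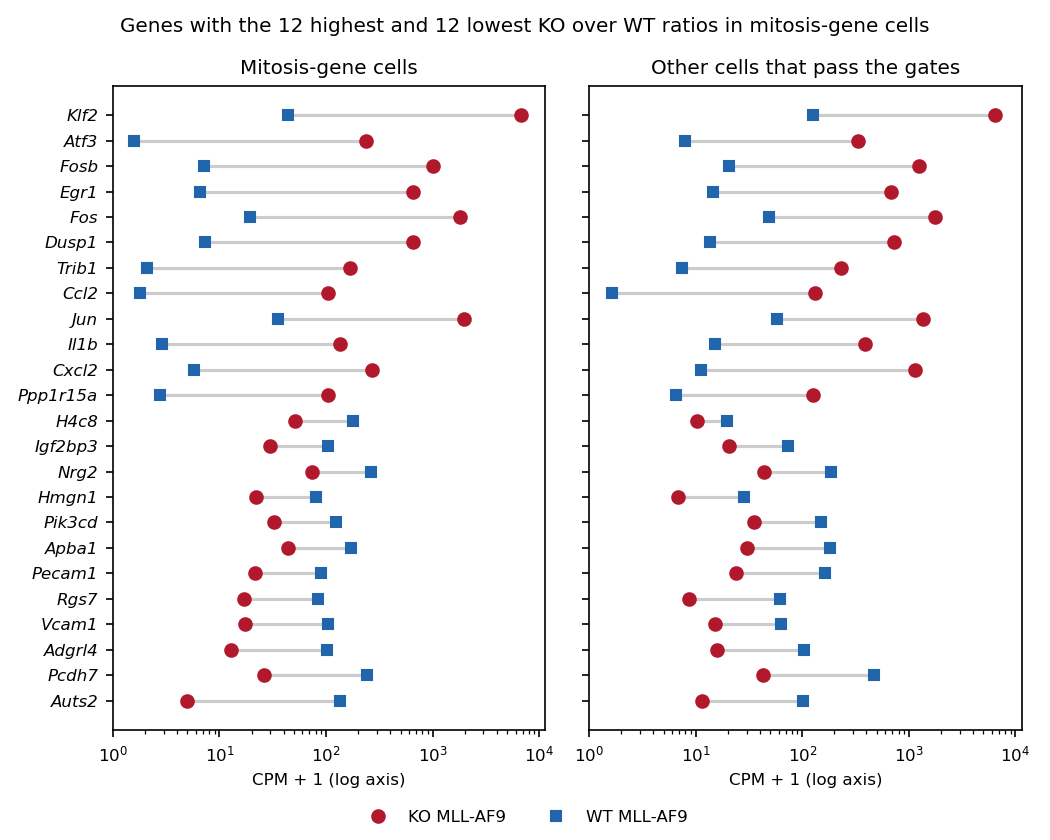
CPM plus 1 (x axis, log scale) in KO (circles) and WT (squares) leukaemia for the genes with the 12 highest and 12 lowest KO over WT ratios in mitosis-gene cells, among genes that averaged at least 50 CPM. Left panel, mitosis-gene cells; right panel, other gated cells. The 24 genes lie on the same side in both panels. They were picked by the left panel, and both panels come from the same libraries, so this is a description.

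Among the largest KO to WT ratios were those of immediate early genes, which cells switch on within minutes of growth factor or stress signals. Of the 30 in the list, 27 averaged at least 5 CPM over KO and WT mitosis-gene cells. Of these, 26 were 2-fold or more higher in KO, where 4.82% of 9660 genes were. The median log2 ratio was 3.98 (4.24 under median-ratio scaling). Klf2, a transcription factor of endothelium and resting lymphocytes, had 6813 CPM in KO and 43.1 CPM in WT (ratio 158, 146 to 171), with a UMI in 960 of 968 and 340 of 1318 cells. Fos, an AP-1 subunit, had 1821 CPM in KO and 18.4 CPM in WT, and its partner Jun 1970 and 34.1 CPM. Fosb had 1000 CPM in KO and 6.09 CPM in WT, Egr1, a zinc finger factor, 659 and 5.50 CPM, and Dusp1, a phosphatase that switches off MAP kinases, 657 and 6.38 CPM. The pseudokinase gene Trib1 and Ppp1r15a, which restarts translation after stress, had 165 and 104 CPM in KO and 1.101 and 1.76 CPM in WT. Genes this near the floor in WT passed the 5 CPM limit through KO alone, so the limit itself set their 2-fold call. Il1b, Cxcl2 and Ccl2, inflammatory cytokine genes, had 135, 267 and 104 CPM in KO and 1.91, 4.77 and 0.807 CPM in WT.

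The high level was spread over the KO mitosis-gene cells. The list took a median of 184 UMIs per 10000 in KO cells, with 96.9 at percentile 10, and a median of 5.67 in WT cells, with 12.2 at percentile 90. The extremes met, at 10.5 for the lowest KO cell and 54.7 for the highest WT cell. Other gated cells showed the same: KO other gated cells had a median of 208 and WT ones 12.05 per 10000, and the median log2 ratio there was 3.77. In c-Kit+ cells chosen by the rule it was −0.06. Mitosis-gene cells held somewhat less of this RNA than other gated cells, with list medians of −0.39 in KO and −1.05 in WT. The heat shock gene Hspa1a had 218 CPM in KO and 15.3 CPM in WT mitosis-gene cells. Genotype and library cannot be told apart with 1 library per group.

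Across the bins the list summed to 19082, 20551, 21461 and 22517 CPM in KO and 661, 572, 661 and 761 CPM in WT. Klf2 had 6396, 6976, 6820 and 7076 CPM in KO, and Fosb 966, 971, 1076 and 984 CPM. Atf3, a stress-induced repressor of the ATF family, had a larger ratio between the bins than these. It had 108, 193, 193 and 463 CPM over the KO bins (bin 4 over bin 1 4.28, 3.81 to 4.82), where 4.98% of genes were 2-fold or more higher. A UMI of Atf3 was seen in 27.3%, 25.2%, 24.0% and 34.3% of the cells of those bins, and no cell of bin 4 gave more than 6.38% of its UMIs. WT mitosis-gene cells held 8 UMIs of Atf3 in all.

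Lowest in KO relative to WT was Auts2, a gene best known in neurons. It had 3.94 CPM in KO and 134 CPM in WT mitosis-gene cells (ratio 0.029, 0.022 to 0.039), with a UMI in 13 of 968 and 209 of 1318 cells. Pcdh7, a protocadherin, had 25.2 CPM in KO and 242 CPM in WT, with a UMI in 25 and 326 cells. Adgrl4, an adhesion receptor of endothelium, had 11.9 CPM in KO and 100 CPM in WT, Vcam1 16.4 and 104 CPM, and Pecam1 20.6 and 88.1 CPM. Pik3cd, the leukocyte catalytic subunit of PI 3-kinase, had 31.2 CPM in KO and 122 CPM in WT, and Nrg2, a neuregulin, 73.5 and 264 CPM. Hmgn1, which loosens nucleosomes, had 21.1 CPM in KO and 79.8 CPM in WT. Rgs7 and Apba1 had 16.1 and 42.9 CPM in KO and 83.9 and 169 CPM in WT. These genes were ranked among those that averaged at least 50 CPM, and the ones below 50 CPM in KO passed that limit through their WT value. The 12 lowest genes were also lower in KO other gated cells, with log2 ratios between −3.47 and −0.95. Those cells come from the same libraries that picked the genes, so this is a description and no separate check. In c-Kit+ cells chosen by the rule the 12 genes lay between −0.63 and 0.43.

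The MLL-fusion and self-renewal list, genes that MLL fusions keep on or that mark leukaemia stem cells, had a median of −0.44 over 30 measured genes (−0.18 under median-ratio scaling). Of these, 7 were 2-fold lower and none higher, where 10.1% of 9660 genes were lower and 4.82% higher. In other gated cells the median was −0.66. There 11 of the 30 were 2-fold lower and none higher, where 18.4% of 9778 genes were lower and 5.55% higher. Pbx3, a HOX cofactor, had 337 CPM in KO and 1124 CPM in WT mitosis-gene cells (0.299, 0.290 to 0.310), with a UMI in 444 of 968 and 1191 of 1318 cells. T cells held 36.3 CPM of Pbx3 in KO and 342 CPM in WT, and the part of free RNA or doublets in its ratio was not tested. Myb, a transcription factor of blood progenitors, had 141 CPM in KO and 296 CPM in WT, and the RNA-binding protein gene Igf2bp3 28.6 and 104 CPM. The heterochromatin gene Cbx5 had 94.7 CPM in KO and 246 CPM in WT, and Tifab 30.4 and 90.03 CPM. Cd34 had 1.62 CPM in KO and 21.1 CPM in WT and Flt3, a receptor of progenitors, 1.54 and 18.1 CPM, on 21 and 20 UMIs in KO.

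Mecom and Mef2c were higher in KO. Mecom, a zinc finger factor of stem cells, had 1080 CPM in KO and 680 CPM in WT mitosis-gene cells (1.59, 1.55 to 1.63), and 1329 and 1195 CPM in KO and WT other gated cells. Mef2c, a transcription factor of early lymphoid and myeloid cells, had 1078 CPM in KO and 824 CPM in WT. T cells held 372 CPM of Mecom in KO and 285 CPM in WT, and 279 and 289 CPM of Mef2c. Hoxa10 had 45.1 and 52.6 CPM, Kit, the stem cell factor receptor, 31.7 and 56.8 CPM, and Myc, a driver of growth and ribosome synthesis, 13.9 and 20.6 CPM in KO and WT. Ribosome biogenesis genes linked to MYC had a median of −0.43 over 30 genes (−0.17 under median-ratio scaling).

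Maturation genes were present in both libraries. The 17 secondary and tertiary granule genes had a median of 0.70 in KO over WT mitosis-gene cells. Of these, 5 were 2-fold higher, where 4.82% of 9660 genes were. Ngp, a neutrophil granule protein, had 16532 CPM in KO and 6772 CPM in WT, Ltf, lactoferrin, 760 and 315 CPM, and Camp, cathelicidin, 25479 and 12749 CPM. The late neutrophil list had a median of 1.37 with 8 of 12 genes 2-fold higher, against 4.82% of all genes, and a median of 1.21 in other gated cells. Class II genes had a median of −1.58 (−0.78 in cells thinned to 2000 UMIs). Of the 6 measured, 5 were 2-fold or more lower, against 10.1% of all genes. Cd74 had 26.5 CPM in KO and 66.5 CPM in WT. Granule RNA was also counted in T cells, with Ngp at 3644 CPM in KO and 1342 CPM in WT. The part of free RNA or doublets in these ratios was not tested.

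Oxidative phosphorylation genes had a median of −0.12 over 44 genes (0.15 under median-ratio scaling) and spliceosome and SR protein genes −0.23 over 44 genes (0.03), with none and 1 gene 2-fold apart.

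A few chosen cells carried genes of other lineages. Cells with 2 or more of 5 red cell genes or 3 or more of 7 megakaryocyte genes numbered 23 of 968 in KO and 10 of 1318 in WT. The erythroid list had a median log2 ratio of 2.11 over 10 genes, and 1.55 without these cells. They held 64.9% of the haemoglobin UMIs of KO and 69.0% of those of WT mitosis-gene cells. Pf4, a platelet chemokine, had 280 CPM in KO and 12.99 CPM in WT, but 96.5% of the KO UMIs came from 1 cell, which held 7 of the 7 megakaryocyte genes. Without the marked cells the log2 ratio of Pf4 was 0.28, against 4.33 with them. The 12 highest and the 12 lowest genes by KO over WT ratio were the same genes without these cells.

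Last, the KO to WT log2 ratio in mitosis-gene cells was set against that in all other cells that passed quality control. Of 9406 genes, 0.574% had a log2 ratio at least 1 higher in mitosis-gene cells and 0.276% at least 1 lower. Among genes that averaged at least 50 CPM in both, Lmnb1, lamin B1 of the nuclear envelope, stood at the low end. It had 438 CPM in KO and 370 CPM in WT mitosis-gene cells, and 856 CPM in KO and 162 CPM in WT other cells, so that the log2 ratios were 0.24 and 2.39. In WT leukaemia Lmnb1 was thus higher in mitosis-gene than in other cells, and in KO leukaemia lower. G0s2, an inhibitor of fat breakdown, had 317 CPM in KO and 109 CPM in WT mitosis-gene cells, and 1223 and 143 CPM in KO and WT other cells. Cdkn1b had 59.5 CPM in KO and 68.8 CPM in WT mitosis-gene cells, against 112 and 69.9 CPM in KO and WT other cells. Trim59, a ubiquitin ligase gene, had 64.8 CPM in KO and 97.8 CPM in WT mitosis-gene cells, and 58.3 and 45.3 CPM in KO and WT other cells. Antxr2, Suco, Ets2, Rabgef1, Pik3ap1 and Mpp7 completed the 10 lowest.

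At the high end, among genes that averaged at least 50 CPM in both comparisons, stood Atf3, Trib1, Klf2, Il1b, Fos, Fosb and Jun, with differences between 1.13 and 1.79 on the log2 scale. In mitosis-gene cells each passed that limit through its KO value, since its WT value was below 50 CPM. WT values of Atf3, Trib1 and Il1b lay near the floor, so their differences rest on few WT UMIs and on the 1 CPM added. Pf4, a platelet chemokine gene, differed by 5.28 but averaged less than that in other cells, at 7.28 CPM in KO and 15.0 CPM in WT. Klf2 had 6813 CPM in KO mitosis-gene and 5835 CPM in KO other cells, and 43.1 CPM in WT mitosis-gene and 94.3 CPM in WT other cells, so the WT values lay further apart. H2bc4 had 394 CPM in KO and 82.99 CPM in WT mitosis-gene cells and 145 and 68.0 CPM in KO and WT other cells, log2 ratios of 2.23 and 1.08. Over the bins it had 272, 307, 375 and 631 CPM in KO and 60.0, 81.4, 98.5 and 94.5 CPM in WT. Hspa1b, a heat shock chaperone, had 141 CPM in KO and 33.3 CPM in WT mitosis-gene cells, and 98.5 and 52.2 CPM in KO and WT other cells. Cpa6, a carboxypeptidase gene, had 155 and 31.6 CPM in KO and WT mitosis-gene cells and 82.0 and 35.9 CPM in the others.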

How the data were processed

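Droplet single-cell RNA-seq was available for 4 libraries, 1 per group. Filtered matrices of genes by cell barcodes hold the UMI counts that the authors deposited without normalization, made with Cell Ranger 7.1.0 on mm10 per the submitters' processing notes; the annotation is not given in the sources used here. Per the labels' protocols, reverse transcription was primed with poly-dT in droplets.

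Cells with at least 500 genes, 1000 UMIs and at most 10% mitochondrial UMIs were kept. UMIs were summed over the cells of a population and scaled to a total of 1000000 (CPM) with Python 3.11.15, NumPy 2.4.6, SciPy 1.17.1 and pandas 2.3.3. Log2 ratios had 1 CPM added, genes that averaged at least 5 CPM were compared, and a 2-fold difference is a description. Doublets were called with Scrublet through Scanpy 1.11.5 and kept. Intervals are exact, at 95%, and a UMI count limits only counting error. The summed depth of the mitosis-gene cells was 12952186 UMIs in KO and 13628195 UMIs in WT. The KO to WT ratios and their intervals were tested on simulated sums with known folds. The simulation held no variation between cells and did not cover the rule, the bins or the states.

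The members, gene lists and choices were made with earlier results of these data known. Genes were named by rule: the 8 rule genes, 14 fixed regulators, the 12 highest and lowest ratios of each comparison averaging at least 50 CPM, the 10 highest and lowest differences of KO to WT ratios, up to 4 members of each list and members of the mitosis lists by role. The 12 genes at each end of the bin 4 over bin 1 ratios were added after their values were seen. Alternatives changed the number of rule genes, the exclusion limits, the cell filter, depth, scaling, pseudocount, the filter on low values, the weight of cells and the comparison cells. Leaving out cells with erythroid or megakaryocyte genes was chosen after seeing the data, as was reading the rule at thinned depth within states. Promoter windows came from RefSeq (GRCm38.p6), matched by symbol. Sex-linked marker genes and receptor segments were left out of the rankings.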

Additional observations from a re-analysis of the deposited data

Results flagged for a closer look

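The KO over WT log2 ratio of Pf4, a platelet chemokine gene, was 4.33 in mitosis-gene cells and −1.53 in other gated cells, a difference of 5.86 with opposite signs, which was not tested. Of the 3633 Pf4 UMIs in KO mitosis-gene cells, 3505 came from 1 cell, and the log2 ratio without cells carrying erythroid or megakaryocyte genes was 0.28.

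The log2 ratio of Trim59, a ubiquitin ligase gene, was −0.59 in mitosis-gene cells and 0.57 in other gated cells, a difference of −1.15 that was not tested. Trim59 had a UMI in 491 of 968 KO and 739 of 1318 WT mitosis-gene cells, and no KO cell gave more than 1.19% of its UMIs.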

How the results depend on the processing

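No paired analysis was possible because each group is 1 library. The share of mitosis-gene cells was 9.47% in KO and 12.2% in WT with 4 or more rule genes, 7.20% and 7.90% with 6 or more, 14.3% and 18.5% without the exclusion limits, 3.54% and 5.13% with cells thinned to 2000 UMIs, and 6.86% and 9.29% at 4000 UMIs. It was lower in KO in each of these. For KO against WT, the lower genes numbered 439 under median-ratio scaling and 500 with 5 CPM added, higher and lower genes 842 and 1503 without a filter, and 244 and 367 at a mean of 25 CPM. For mitosis-gene against all other cells in KO, lower genes numbered 242 with 5 CPM added, 646 without a filter and 592 with equal weight per cell, higher and lower genes 346 and 193 at 25 CPM and 956 and 611 when the same cells were thinned, and higher genes 924 against other gated cells. In WT, lower genes numbered 184, 597 and 578 in the first 3 settings and 105 at 25 CPM, and higher and lower genes 607 and 592 when thinned and 571 and 567 against other gated cells. Against other gated cells, 127 genes had a higher KO to WT log2 ratio by 1 or more in mitosis-gene cells. In KO mitosis-gene against other cells the log2 ratio of Pf4 was −0.22 without marked cells. The primary granule list, whose genes the exclusion limits use, had medians of 0.62 in KO and 0.37 in WT against other gated cells, the opposite sign to that against all other cells. The cause of the other moves was not tested. Of 77 named genes 2-fold apart between KO and WT, 77 kept their direction in every alternative run. They were picked from the same libraries that the alternatives reprocess, so this was largely set in advance. Among KO to WT values of named genes over the alternatives, 2618 stayed the same and 622 moved in size. With 1 library per group, differences between animals cannot be told apart from genotype, depth differs between KO and WT cells, and genes seen in few cells rest on few UMIs.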
